A study of Drosophila melanogaster with 6 samples.

Results

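The transcripts of 10 genes for glycolytic enzymes, Pfk, Ald1, Gapdh1, Gapdh2, Pgk, Pglym78, Pglym87, Eno, PyK and Ldh, were followed in body parts of male Drosophila melanogaster. The genes were chosen by name as enzymes of glycolysis and their copies, with earlier results of these data known. All 10 were found by FlyBase identifier among the 16942 genes that the count files list. The males were of the Dahomey wild type strain, carried no introduced allele, were kept 10 to a vial after eclosion and were housed singly from 1 day of age for 5 days. Every group had been exposed to rival males, so no group here lacks that exposure. There were 3 pools of RNA, each from 40 body parts: abdomen after 2 h with rivals, head-thorax after 26 h (called HT26) and head-thorax after 2 h (called HT2). From every pool 2 technical libraries were made, split library 1 and split library 2, and run on separate lanes of a single flow cell. The undivided libraries of these pools were not analysed here. With 1 pool per group, the p-values below measure the spread between split libraries and compare these pools, not the conditions.

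Glycolysis breaks glucose down to pyruvate in the cytosol and yields ATP and NADH. Drosophila flight muscle burns carbohydrate at a high rate and is known for large amounts of the glycolytic enzymes. It regains NAD+ mainly through the glycerol phosphate shuttle, in which a cytosolic glycerol-3-phosphate dehydrogenase and a mitochondrial glycerophosphate oxidase act in turn, and to a small extent through lactate dehydrogenase. Several glycolytic genes of the fly have further copies that are known from the testis, where sperm develop. No pool was muscle alone: head-thorax holds flight and leg muscle together with brain, eyes, gut and fat body, and abdomen holds gut, fat body, body wall and heart muscle, testes and accessory glands.

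On the BDGP6.54 assembly, Pglym87 (FBgn0011270) lies on the minus strand at 3R:12231645-12232729 and has 1 exon and 1 annotated transcript. Pglym78 (FBgn0014869), the other phosphoglycerate mutase among the 10, lies on the plus strand at 3R:29148248-29149901 and has 3 exons in each of its 3 transcripts. Gapdh1 (FBgn0001091) has 1 exon and lies at 2R:7791901-7793380, and Gapdh2 (FBgn0001092) has 2 exons and lies at X:15868145-15869661. The remaining genes are Pfk (FBgn0003071) at 2R:10109740-10117457, Ald1 (FBgn0000064) at 3R:26254069-26261591, Pgk (FBgn0250906) at 2L:2746880-2753068, Eno (FBgn0000579) at 2L:1724768-1729636, PyK (FBgn0267385) at 3R:22367536-22372746 and Ldh (FBgn0001258) at 3L:6259105-6262694. All 10 are protein-coding. Gapdh1, Gapdh2, Pglym87, PyK, Pfk and Ldh overlap no other annotated gene. Ald1 shares 614 bases with asRNA:CR44321, Eno shares 905 bases with Rrp40, and Pglym78 shares 6 bases with eIF2D, each on the opposite strand. Pgk shares 624 bases with Bacc on the opposite strand, and in abdomen the 3183 and 4872 counts of Bacc were as high as the 2771 and 4257 counts of Pgk. The counts themselves show that strand was not used and that a read over more than 1 gene was counted at each. In all 856 cases where a gene with at least 100 counts lies inside an opposite-strand gene without sharing exon bases, the outer gene had at least the count of the inner gene in every library, so introns were counted as well. Arr2, for example, had 58529 and 39556 counts in HT2, against 58555 and 39577 counts of Pex7, which overlaps it on the opposite strand. The counts of a gene therefore hold any reads of a partner in the shared bases. For Eno these can be at most the 83 and 140 counts of Rrp40 in abdomen and 58 and 34 in HT2. Gapdh1 and Gapdh2 have closely similar coding sequences, so how reads were divided between them is uncertain.

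Total counts were 21070598 to 34217543 per library, and the mitochondrial genome accounted for 8.04% and 7.46% of them in abdomen, 22.0% and 21.6% in HT26 and 17.3% and 17.9% in HT2. The body parts were checked against marker genes. The 14 genes listed as flight muscle markers summed to 9023 and 8712 CPM (counts scaled to the TMM effective library size) in abdomen, 19753 and 19522 in HT26 and 16328 and 16527 in HT2. Of these sums, sls alone held 6321 and 5963 CPM in abdomen, 8097 and 7888 in HT26 and 4588 and 4760 in HT2. It was higher in abdomen than in HT2, while the other 13 were lower. The 7 eye markers summed to 87.8 and 80.8 CPM in abdomen, 10744 and 10760 in HT26 and 11576 and 11602 in HT2. Of the abdomen sums, norpA alone held 67.9 and 66.5 CPM, from 1606 and 2348 counts. It shares 2378 bases with CG12693 on the opposite strand, which had 1078 and 1611 counts in abdomen and 8 and 2 in HT2. The abdomen level of norpA may therefore hold reads of CG12693. The 14 testis markers summed to 6342 and 6428 CPM in abdomen, 34.3 and 28.6 in HT26 and 14.7 and 9.26 in HT2. No flight muscle, eye or testis marker was at 0 in any pool. In such bulk samples, fewer cells of a type and less RNA per cell cannot be told apart.

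The data differed most between body parts. In abdomen 8 of the 10 transcripts were lower than in HT2 by at least 2-fold, Pglym87 was higher, and Ldh differed by less than 2-fold. The largest decreases were those of Gapdh1 (8.20-fold) and Ald1 (7.87-fold). A gene was called at an adjusted p under 0.05 in the edgeR quasi-likelihood test and at least a 2-fold difference. Over all 14694 genes tested, 21.7% were called lower in abdomen and 35.6% higher. With no fold limit, 8 of the 10 were lower and 2 higher, where 43.6% of all genes were lower and 46.8% higher. The median log2 ratio was -1.65 over the 10 genes, 0.06 over all genes tested and -0.35 over the 5670 genes with a mean of at least 20 CPM. The 10 genes together summed to 2416 and 2470 CPM in abdomen, against 11208 and 11188 CPM in HT2. All 10 passed the filter on low counts, but Pglym87 cleared its limit in abdomen and in HT26 and not in HT2.

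**Figure D1:**
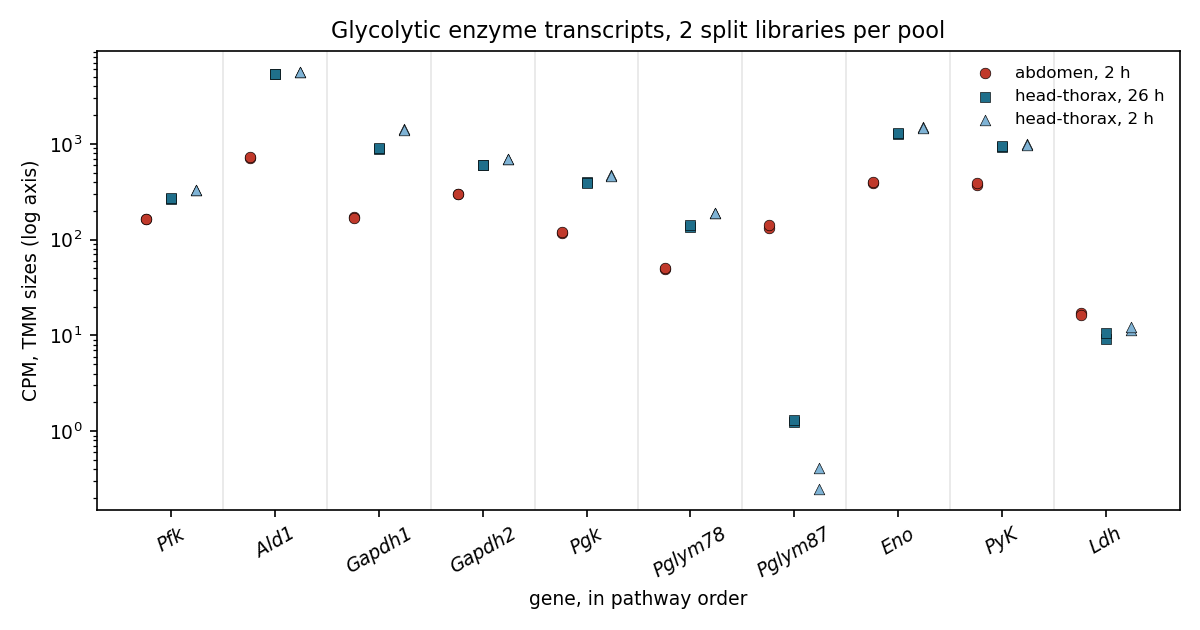
CPM (log axis) of the 10 glycolytic enzyme genes in pathway order, with a symbol for each split library of abdomen (circles), HT26, which is head-thorax at 26 h (squares), and HT2, which is head-thorax after 2 h (triangles). Abdomen lies lowest for 8 genes and highest for Ldh and for Pglym87, which stood at 131 and 141 CPM in abdomen and at 0.250 and 0.411 CPM in HT2.

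The upper steps of the pathway make triose phosphates. Pfk, the phosphofructokinase that commits fructose 6-phosphate to glycolysis, had 163 and 162 CPM in the abdomen libraries, against 330.3 and 328 CPM in the HT2 libraries. Its libraries did not overlap between the pools, and its log2 ratio was -1.02 ± 0.03 (SE), 2.03-fold lower in abdomen. This lies at the 2-fold limit, and the call was lost with DESeq2 size factors (-0.88), raw library totals (-0.81), the DESeq2 Wald test (-0.87), the fold limit inside the edgeR model (adjusted p = 0.169) and without split library 1 of HT2 (-0.95). Ald1, the aldolase that splits fructose 1,6-bisphosphate, had 713 and 721 CPM in abdomen, against 5618 and 5665 CPM in HT2. Its log2 ratio was -2.98 ± 0.03, and the ranges of the libraries lay far apart. The asRNA:CR44321 that overlaps it had 330 and 460 counts in abdomen and 2684 and 1909 in HT2, beside 16885 and 25443 counts of Ald1 in abdomen and 179478 and 124146 in HT2.

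Glyceraldehyde-3-phosphate dehydrogenase, which reduces NAD+ as it oxidises triose phosphate, is made from 2 genes that differed unequally. Gapdh1 had 173 and 167 CPM in abdomen, against 1412 and 1379 CPM in HT2, a log2 ratio of -3.04 ± 0.03. Gapdh2 had 296 and 302 CPM in abdomen, against 692 and 696 CPM in HT2, a log2 ratio of -1.21 ± 0.03 or 2.32-fold lower. Abdomen was the lower pool for both genes. Gapdh1 made up 36.2% of the counts of the pair in abdomen (exact Clopper-Pearson 95% interval 35.6% to 36.7%), 59.7% in HT26 (59.4% to 60.1%) and 66.8% in HT2 (66.6% to 67.1%). The order of the copies was therefore opposite in abdomen and in the head-thorax pools. These intervals, like all below, cover counting error only, and the split libraries gave 36.9% and 35.7% in abdomen, 59.5% and 60.0% at 26 h and 67.1% and 66.5% at 2 h.

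Among the later steps, Pgk, whose enzyme makes ATP from 1,3-bisphosphoglycerate, had 117 and 121 CPM in abdomen, against 467 and 463 CPM in HT2, and was 3.91-fold lower in abdomen. Eno, the enolase that forms phosphoenolpyruvate, had 386 and 404 CPM in abdomen, against 1492 and 1476 CPM in HT2, and was 3.75-fold lower in abdomen. PyK, the pyruvate kinase that makes ATP and pyruvate, had 369 and 385 CPM in abdomen, against 997 and 981 CPM in HT2, and was 2.62-fold lower in abdomen. The libraries of the pools overlapped for none of these 3 genes. Over the 8 genes called lower, the largest adjusted p in the edgeR quasi-likelihood test was 2.85e-54, that of Pfk.

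The phosphoglycerate mutases, which move the phosphate group of 3-phosphoglycerate, went opposite ways. Pglym78 had 49.7 and 50.5 CPM in abdomen, against 188 and 187 CPM in HT2, and was 3.74-fold lower in abdomen. Pglym87 had 3111 and 4988 counts in abdomen, 35 and 41 in HT26 and 8 and 9 in HT2. Its pooled CPM in abdomen was 435 times that in HT2 (exact counting interval 272 to 748), and the fitted log2 ratio was 8.74 ± 0.10 (adjusted p = 2.01e-86, edgeR quasi-likelihood test). Pglym87 made up 73.3% of the counts of the pair in abdomen (72.4% to 74.1%), 0.904% in HT26 (0.713% to 1.13%) and 0.168% in HT2 (0.0979% to 0.269%). The 17 counts of Pglym87 beside 10106 of Pglym78 in HT2 also bound the share of Pglym78 reads that can have been counted to Pglym87 there, at 0.168%. All 14 testis markers were called higher in abdomen as well, where 35.6% of all genes were. Of the 14 markers, can, aly, ProtA and ProtB cleared the limit on low counts there alone and so could be tested only by being high there. Per 100 testis marker counts there were 2.15 Pglym87 counts in abdomen (2.10 to 2.20), 4.07 in HT26 (3.19 to 5.12) and 2.53 in HT2 (1.46 to 4.08). The intervals of abdomen and HT26 did not overlap. In HT2 the marker sums differed between split libraries (14.7 and 9.26 CPM), which the interval does not cover. The 7 accessory gland markers, of which Acp62F, SP and Acp29AB cleared that limit in abdomen alone, were also all higher in abdomen, with sums of 3872 and 3781 CPM in abdomen, 10.6 and 6.94 CPM in HT26 and 5.70 and 4.75 CPM in HT2. The part of these tissues in the Pglym87 result was not tested.

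Ldh, the lactate dehydrogenase that converts pyruvate and lactate into each other, had the lowest level per length of exon in every pool when Pglym87 is set aside. It had 17.2 and 16.15 CPM in abdomen, 9.07 and 10.5 CPM in HT26 and 11.5 and 12.4 CPM in HT2. The abdomen libraries lay above all 4 head-thorax libraries. The ratio of abdomen over HT2 was 1.40 (log2 0.49 ± 0.08, adjusted p = 2.48e-08 in the edgeR quasi-likelihood test), which is below the 2-fold limit.

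**Figure D2:**
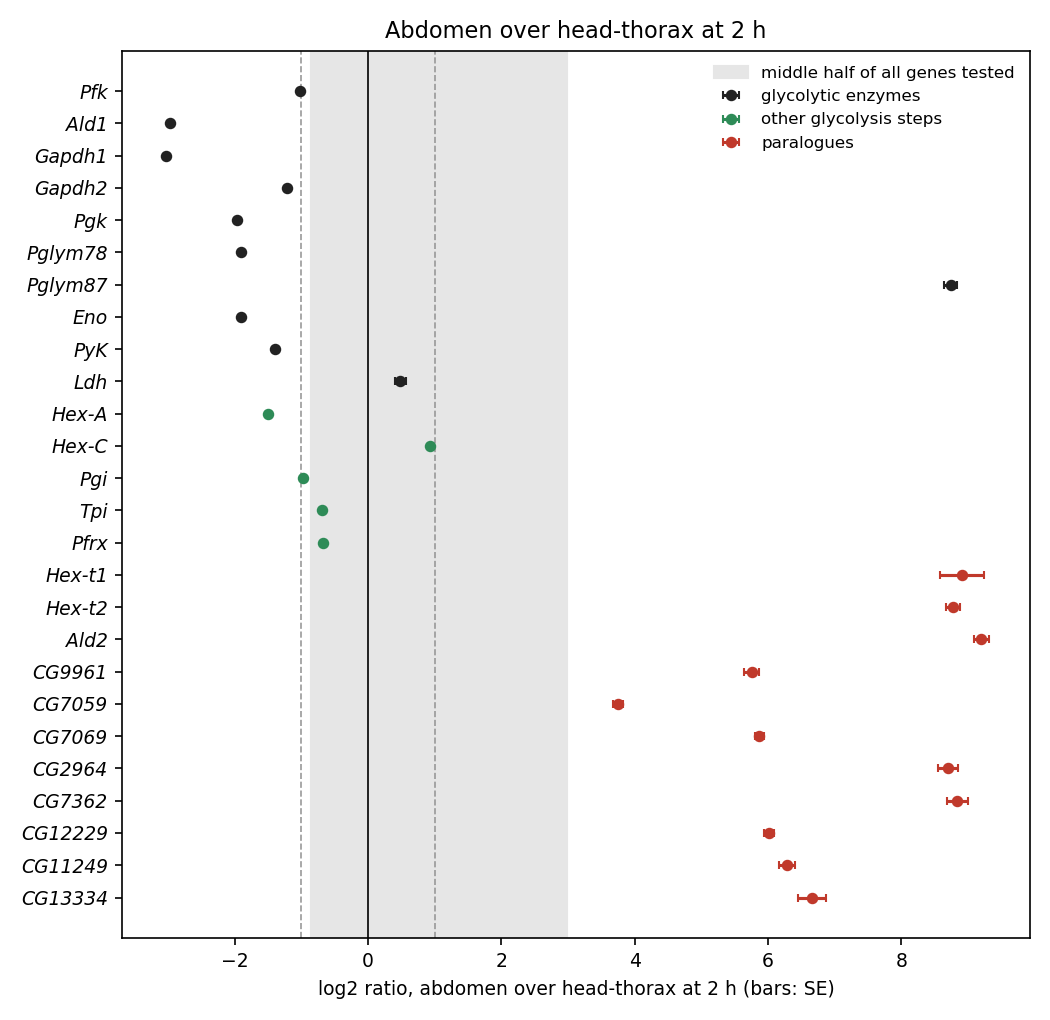
Log2 ratio of abdomen over HT2 (x axis, points with SE bars) for the 10 glycolytic enzymes, 5 other glycolysis steps and 11 paralogues. The grey band is the interquartile range of all 14694 genes tested and dashed lines mark a 2-fold difference; 8 of the 10 enzymes lie left of the lower line, while Pglym87 lies with the paralogues, between 3.75 and 9.20.

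Levels of different genes were compared per length, as CPM per kilobase of annotated exon. In abdomen the order was Gapdh2 (207 ± 2.74, SD of 2 split libraries), Ald1 (188 ± 1.38), PyK (168 ± 5.16), Pglym87 (126 ± 6.44), Gapdh1 (115 ± 2.87), Eno (106 ± 3.35), Pgk (56.3 ± 1.18), Pglym78 (44.1 ± 0.498), Pfk (37.1 ± 0.107) and Ldh (8.59 ± 0.381). No neighbours in this order overlapped between split libraries. In HT26 Ald1 led with 1405 ± 0.929, followed by Gapdh1 (606 ± 9.80), and Gapdh2 (419 ± 1.24) and PyK (416 ± 7.71) overlapped. In HT2 the order was Ald1 (1481 ± 8.60), Gapdh1 (943 ± 15.7), Gapdh2 (481 ± 1.97), PyK (441 ± 5.06), Eno (399 ± 3.06), Pgk (220.2 ± 1.42), Pglym78 (165 ± 0.388), Pfk (75.2 ± 0.306), Ldh (6.13 ± 0.331) and Pglym87 (0.305 ± 0.104), again with no overlap. Pglym87 thus stood at place 4 in abdomen and at place 10 in both head-thorax pools. The counts include reads in introns, while the length is that of the exons of all isoforms joined, so the order of neighbouring genes is approximate.

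Of 5 further genes for steps of glycolysis outside the 10, 1 was called lower in abdomen and none higher in the edgeR quasi-likelihood test, while 4 were lower and 1 higher with no fold limit. Over all genes tested, 21.7% were called lower and 35.6% higher. Hex-A, a hexokinase of general use, was the gene called lower, with 122 ± 3.55 CPM in abdomen and 346 ± 0.937 CPM in HT2 (log2 -1.49 ± 0.03). Pgi, the isomerase between glucose and fructose phosphates, had a log2 ratio of -0.97, Tpi, the triose phosphate isomerase, -0.70, and Pfrx, which makes and breaks the activator fructose 2,6-bisphosphate, -0.67. Hex-C, a further hexokinase, had 102 ± 1.30 CPM in abdomen and 53.4 ± 1.10 CPM in HT2, a log2 ratio of 0.93. All 1493 bases of Hex-C lie inside CG8079 on the opposite strand. In abdomen CG8079 had 2556 and 3863 counts, beside 2394 and 3635 of Hex-C. Pfrx lies wholly inside CG14200 on the same strand. The values of Hex-C and Pfrx may therefore hold reads of these outer genes. Hex-C passed 2-fold with DESeq2 size factors, raw library totals, the DESeq2 Wald test and without split library 1 of HT2.

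The 11 further copies of glycolytic genes were all called higher in abdomen than in HT2, against 35.6% of all genes tested. Their list was chosen with earlier results of these data known. The copies were assigned to their enzyme families from general knowledge, because the annotation used here names but does not describe them. They were Hex-t1 and Hex-t2 (hexokinases), Ald2 (aldolase), CG9961 (phosphoglycerate kinase), CG7059 (phosphoglycerate mutase), CG7069, CG2964, CG7362, CG12229 and CG11249 (pyruvate kinases) and CG13334 (lactate dehydrogenase). Their log2 ratios ran from 3.75 for CG7059 to 9.20 for Ald2. Hex-t1, CG7362 and CG13334 cleared the limit on low counts in abdomen alone, so they could pass only by being high there. Ald2 had 112 ± 1.56 CPM in abdomen, 0.678 ± 0.261 CPM in HT26 and 0.178 ± 0.0582 CPM in HT2. CG7069, which begins 88 bases after the end of PyK on the same strand, had 138 ± 2.54 CPM in abdomen and 2.33 ± 0.200 CPM in HT2, opposite in direction to its neighbour. CG9961 begins 1945 bases after the end of Pgk on the same strand and had 42.3 ± 0.434 CPM in abdomen and 0.786 ± 0.0495 CPM in HT2, also opposite to its neighbour. CG12229 lies inside CG32176 and CG7362 inside jvl, both on the opposite strand, so their values may hold reads of these genes.

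As shares of an enzymatic step, the counts of these copies were large in abdomen and small in head-thorax. For phosphoglycerate mutase, Pglym87 and CG7059 held 80.3% of counts in abdomen (79.6% to 80.9%), 3.27% in HT26 and 2.73% in HT2. For pyruvate kinase, the 5 copies held 50.9% in abdomen (50.4% to 51.3%), 0.712% in HT26 and 0.494% in HT2. CG13334 held 48.3% of the lactate dehydrogenase counts in abdomen (46.0% to 50.5%), 3.62% in HT26 and 1.24% in HT2. The step with the smallest share of copies was aldolase, where Ald2 held 13.5% in abdomen (13.2% to 13.8%), 0.0129% in HT26 and 0.00329% in HT2. Hex-t1 and Hex-t2 held 34.6% of hexokinase counts in abdomen and 0.0651% in HT2, and CG9961 held 26.2% of phosphoglycerate kinase counts in abdomen and 0.167% in HT2. Counts divided by exonic length gave 43.7% for hexokinase and 23.0% for aldolase in abdomen.

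**Figure D3:**
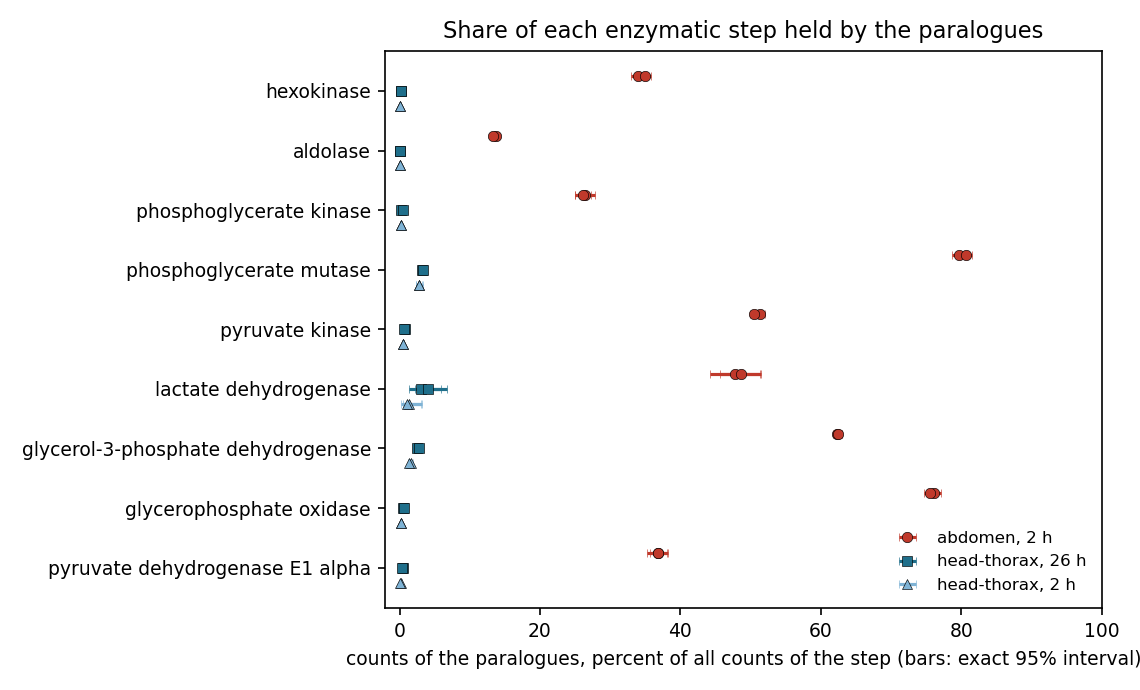
Counts of the paralogues (Pglym87 included) as a percentage of all counts of each enzymatic step (x axis), with a symbol for each split library and exact 95% intervals. Abdomen lies between 13.3% for aldolase and 80.7% for phosphoglycerate mutase, and the HT26 and HT2 libraries lie below 5% at every step.

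The glycerol phosphate shuttle also differed between body parts, with its genes going both ways. Of its 6 genes, 4 were called higher and 1 lower in abdomen, where 35.6% of all genes were called higher and 21.7% lower. Gpdh2 cleared the limit on low counts in abdomen alone and so could be tested only by being high there. Gpdh1, the main cytosolic glycerol-3-phosphate dehydrogenase, had 306 ± 0.729 CPM in abdomen and 544 ± 5.80 CPM in HT2 (log2 -0.83 ± 0.03). Gpo1, a mitochondrial glycerophosphate oxidase, was the gene called lower, with 70.1 ± 3.09 CPM in abdomen and 468 ± 7.46 CPM in HT2 (log2 -2.73 ± 0.03). Gpdh3 had 493 ± 0.591 CPM in abdomen and 8.58 ± 0.970 CPM in HT2, and Gpo3 had 149.9 ± 1.65 CPM in abdomen and 0.278 ± 0.00563 CPM in HT2. Gpo3 lies inside DIP-kappa on the opposite strand. The other genes called higher were Gpo2 (log2 6.79 ± 0.10) and Gpdh2, which had 853 counts in abdomen and 0 in HT2 and was at least 260-fold higher in abdomen where the floor is 3 counts summed over HT2. Gpdh2 and Gpdh3 held 62.4% of glycerol-3-phosphate dehydrogenase counts in abdomen, and Gpo2 and Gpo3 held 75.8% of glycerophosphate oxidase counts there, against 1.58% and 0.194% of those steps in HT2.

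Among 11 genes of pyruvate entry into mitochondria and of gluconeogenesis, 4 were called lower in abdomen and 1 higher, where 21.7% of all genes were called lower and 35.6% higher. Pepck1, which makes phosphoenolpyruvate from oxaloacetate, had 560 ± 0.253 CPM in abdomen and 1587 ± 17.6 CPM in HT2 (log2 -1.50 ± 0.03), and its counts are identical to those of CG45087, which overlaps it on the same strand, so they cannot be assigned to either gene. Pdha, a subunit of pyruvate dehydrogenase, had 114 ± 3.86 CPM in abdomen and 381 ± 6.33 CPM in HT2 (log2 -1.74 ± 0.03). The other genes called lower were CG9399 (-1.52), a subunit of the mitochondrial pyruvate carrier, and Pepck2 (-3.67). CG7024, a copy of Pdha that begins 43 bases after its end, was the gene called higher (6.37 ± 0.10). Of 10 genes of glycogen and trehalose metabolism, 3 were called lower and 2 higher, against the same shares of all genes. Those lower were Glyp, the glycogen phosphorylase (-2.17 ± 0.03), Glys, the glycogen synthase (-2.67 ± 0.03), and CG9485, the debranching enzyme (-1.55 ± 0.03). Tps1, which makes trehalose, the blood sugar of insects, had 1209 ± 46.7 CPM in abdomen and 466 ± 0.871 CPM in HT2 (log2 1.38 ± 0.03), and Pgm2a was the other gene called higher (3.18 ± 0.04). Of 6 genes for regulators of sugar use, 0 were called in the edgeR quasi-likelihood test, with 3 higher and 2 lower when no fold limit was set. The genes singled out here because they were called, beyond the 4 most abundant of each list, were chosen after their values were seen.

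Most genes listed as flight muscle markers were lower in abdomen as the enzymes were, and the markers listed for other muscles went both ways. Of the 14 genes listed as flight muscle markers, 13 were called lower in abdomen than in HT2, against 21.7% of all genes. Their median log2 ratio was -1.80, in a range from -8.26 to 0.39. The differences were uneven: TpnC4 had 0.854 ± 0.0464 CPM in abdomen and 262 ± 3.29 CPM in HT2. Whether each listed gene is limited to flight muscle was not tested, so the median and the sum are those of the list. They were not shown to be those of flight muscle. Mf, the thick filament protein myofilin, had 218 ± 2.62 CPM in abdomen and 3588 ± 40.5 CPM in HT2, and Mhc, the muscle myosin heavy chain, had 683 ± 21.9 CPM in abdomen and 1376 ± 21.9 CPM in HT2. The exception was sls, a giant elastic muscle protein, with 6142 ± 253 CPM in abdomen and 4674 ± 121 CPM in HT2 (log2 0.39). Of 5 markers of other muscles, Act79B was called lower in abdomen (log2 -2.41), TpnC47D (2.46) and TpnC73F (1.27) were called higher, and their median log2 ratio was 0.02. The 7 eye markers and the 5 neuron markers were also all called lower in abdomen, where 21.7% of all genes were. Of the eye markers, trp, ninaC and Rh3 cleared the limit on low counts in the head-thorax pools alone. These could be tested only by being high there. The neuron markers summed to 171 and 176 CPM in abdomen, against 1987 and 2016 CPM in HT2. Of the abdomen sums, cpx alone held 98.7 and 102 CPM, from 2337 and 3589 counts. It shares 2567 bases with Nepl11 on the opposite strand, which had 1567 and 2400 counts in abdomen. The abdomen level of cpx may therefore hold reads of Nepl11. The part of muscle, eye and neurons in the lower enzyme transcripts of abdomen was not tested.

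Between the head-thorax pools, HT26 over HT2, Pglym87 was the only one of the 10 transcripts called, and it was higher at 26 h. None was called lower in the edgeR quasi-likelihood test. Over all genes tested, 6.21% were called higher and 1.5% lower. With no fold limit, 9 of the 10 were lower at 26 h at an adjusted p under 0.05 and 1 was higher, where 21.3% of all genes were lower and 19.7% higher. The median log2 ratio of the 10 genes was -0.23, beside 0 over all genes tested. The 10 genes summed to 9833 and 9920 CPM at 26 h, against 11208 and 11188 CPM at 2 h. Both comparisons use HT2, so their values for a gene are not independent. Rivals and time cannot be told apart, since no pool without rivals was measured here.

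The decrease was largest for Gapdh1, with 887 and 908 CPM at 26 h, against 1412 and 1379 CPM at 2 h, which was 1.56-fold lower at 26 h (log2 -0.64 ± 0.03, adjusted p = 2.20e-39 in the edgeR quasi-likelihood test). Gapdh2 had 604 and 606 CPM at 26 h, against 692 and 696 CPM at 2 h (log2 -0.20 ± 0.02). Pglym78 had 136 and 143 CPM at 26 h, against 188 and 187 CPM at 2 h (log2 -0.43 ± 0.03). Libraries of the pools did not overlap for these 3 genes. Pfk (267 and 274 CPM at 26 h, against 330.3 and 328 CPM at 2 h), Pgk (396 and 394 CPM at 26 h, against 467 and 463 CPM at 2 h) and Eno (1263 and 1284 CPM at 26 h, against 1492 and 1476 CPM at 2 h) had log2 ratios of -0.28, -0.24 and -0.22. Ald1 had 5349 and 5354 CPM at 26 h, against 5618 and 5665 CPM at 2 h, and PyK had 921 and 945 CPM at 26 h, against 997 and 981 CPM at 2 h. The log2 ratios of both were -0.08, with adjusted p = 0.0237 for Ald1 and 0.00538 for PyK in the edgeR quasi-likelihood test. Ldh had a log2 ratio of -0.27 ± 0.09 (adjusted p = 0.00918 in the same edgeR test). Of the 9, Ald1, PyK and Ldh were no longer under an adjusted p of 0.05 with the DESeq2 Wald test or without split library 1 of HT26, which left 6.

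Pglym87 had 35 and 41 counts at 26 h, against 8 and 9 at 2 h. The libraries did not overlap, and the ratio of pooled CPM was 4.04 (exact counting interval 2.36 to 7.29; fitted log2 2.00 ± 0.34, adjusted p = 4.94e-07 in the edgeR quasi-likelihood test). The level was low in both pools, at 1.23 and 1.31 CPM in HT26, against 0.250 and 0.411 CPM in HT2, beside 131 and 141 CPM in abdomen. Of the 14 testis markers, 10 were called higher at 26 h as well, where 6.21% of all genes were. With the fold limit inside the edgeR model, 4 of the markers were called higher. The markers had summed levels of 34.3 and 28.6 CPM at 26 h, against 14.7 and 9.26 CPM at 2 h. Their part in the Pglym87 difference was not tested. None of the 7 accessory gland markers was called in the edgeR quasi-likelihood test, and 2 were higher with no fold limit. Of these markers, 1 was called higher without split library 1 of HT2 and 2 without split library 2 of HT26.

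**Figure D4:**
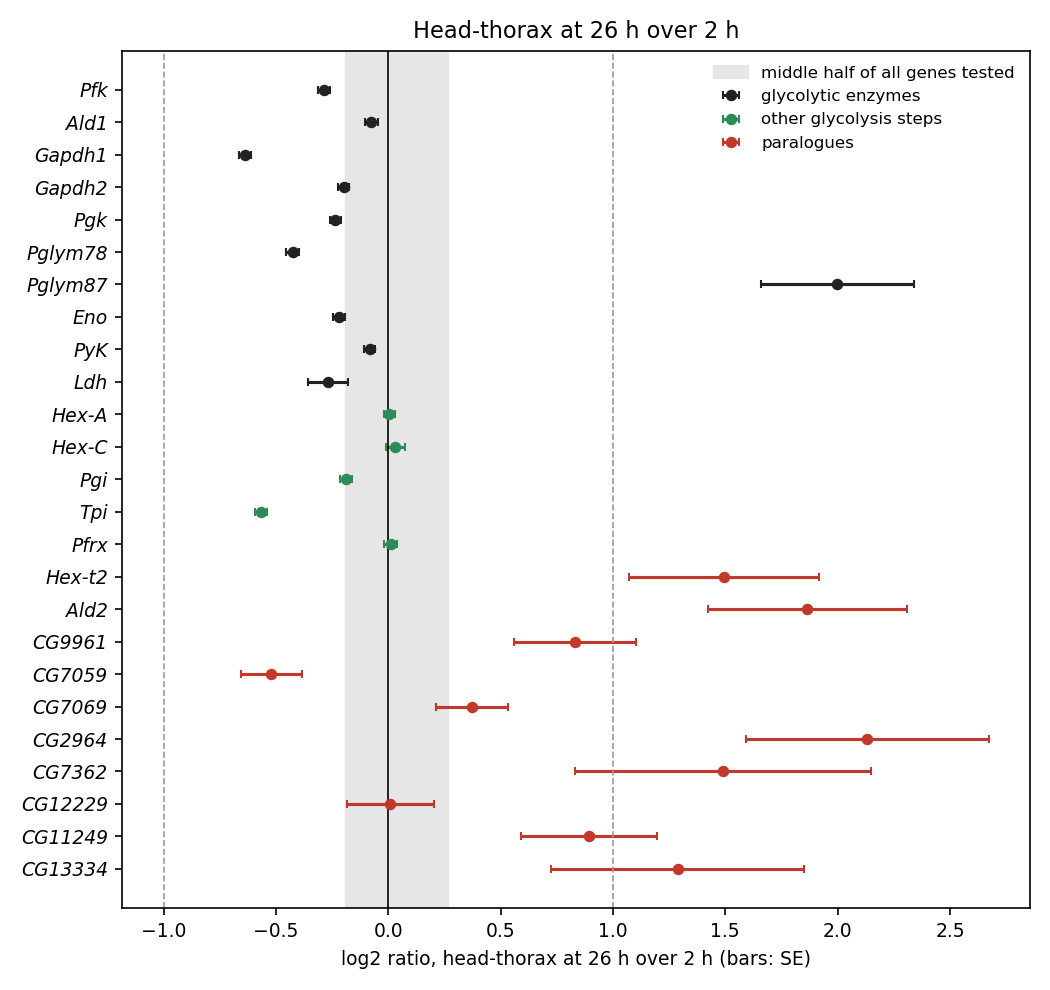
Log2 ratio of HT26 over HT2 (x axis, points with SE bars) for the glycolytic enzymes, other glycolysis steps and paralogues; Hex-t1, with 0 counts at 26 h and 1 at 2 h, is left out. The grey band is the interquartile range of all genes tested and dashed lines mark 2-fold: Gapdh1 at -0.64 is lowest, and Pglym87 at 2.00, Ald2 at 1.86, CG2964 at 2.13 and Hex-t2 at 1.49 are past the upper line with an adjusted p under 0.05.

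Of the 11 paralogues, 3 were called higher at 26 h and 0 lower in the edgeR quasi-likelihood test, and 5 were higher and 1 lower with no fold limit. Over all genes tested, 6.21% were called higher and 1.5% lower, and 19.7% were higher and 21.3% lower with no fold limit. Ald2 had 14 and 27 counts at 26 h, against 7 and 3 at 2 h, and Hex-t2 had 22 and 19 counts at 26 h, against 10 and 3 at 2 h. CG2964 had 14 and 16 counts at 26 h, against 4 and 2 at 2 h. The libraries did not overlap for these 3 genes, but the counts are few: the ratios of pooled CPM were 3.70 for Ald2 (1.82 to 8.29), 2.85 for Hex-t2 (1.50 to 5.79) and 4.52 for CG2964 (1.85 to 13.3). With the fold limit inside the edgeR model none of the 3 calls was kept, with adjusted p of 0.224 for Ald2, 0.685 for Hex-t2 and 0.173 for CG2964, and without split library 2 of HT26 the adjusted p of Ald2 was 0.054. CG7059 was the paralogue that was lower with no fold limit, with 3.44 ± 0.329 CPM at 26 h and 4.95 ± 0.0349 CPM at 2 h (log2 -0.52). Among the other lists, Tpi had 189 ± 4.25 CPM at 26 h and 280.0 ± 2.90 CPM at 2 h (log2 -0.57 ± 0.03), and the genes of the glycolysis steps, pyruvate, glycogen and regulator lists gave no call at 2-fold, except that 1 gene of the pyruvate list was called higher without split library 1 of HT2. Gpo3 was the only shuttle gene called, with 49 counts at 26 h and 15 at 2 h, and Gpo2 lay just under the limit (log2 0.97, adjusted p = 0.00375 in the edgeR quasi-likelihood test). The number of shuttle genes called higher was 2 with DESeq2 size factors, the DESeq2 Wald test and without split library 1 of HT2 or of HT26, and 0 with the fold limit inside the edgeR model. Flight muscle markers gave 0 calls in the edgeR quasi-likelihood test, with 4 higher and 8 lower when no fold limit was set, while their summed level was 19753 and 19522 CPM at 26 h, against 16328 and 16527 CPM at 2 h. Of that sum, sls had 7992 ± 148 CPM in HT26 and 4674 ± 121 CPM in HT2.

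Within a pool, each gene with at least 10 counts was compared between the split libraries by an exact binomial test, two-sided. In abdomen, 1 of the 10 genes differed at an adjusted p under 0.05, where 1.83% of all 14765 genes did. That gene was Eno, with 9135 and 14245 counts, a ratio of split library 1 over 2 of 0.956 after scaling (adjusted p = 0.0489, exact binomial test). None of the 10 differed in HT26, where 0.459% of genes did, or in HT2, where 0.638% did, by the same test. The log2 ratios of split library 1 over 2 ran from -0.10 to 0.09 in abdomen, from -0.21 to 0.01 in HT26 and from -0.71 to 0.03 in HT2. The value of -0.71 is that of Pglym87, with 8 and 9 counts. Eno differed between split libraries by far less than between body parts, where its log2 ratio was -1.91.

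**Figure D5:**
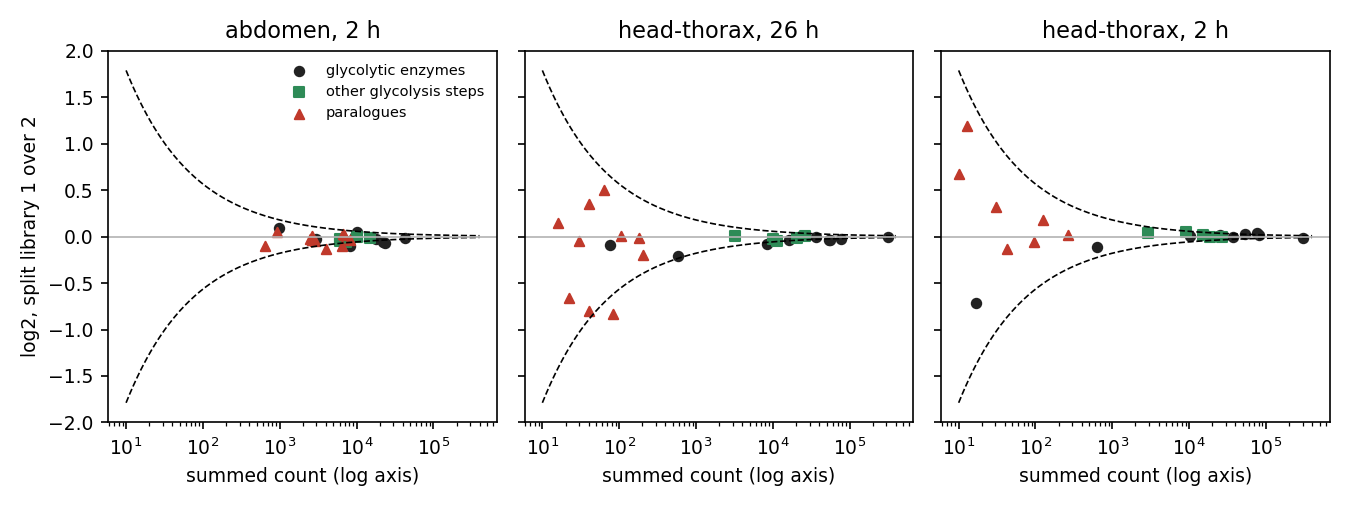
Log2 ratio of split library 1 over 2 (y axis) against the summed count of a gene (log x axis) within each pool, for the glycolytic enzymes, other glycolysis steps and paralogues with at least 10 counts. Dashed lines bound the 95% range of counting error; the genes with few counts, such as Pglym87 at -0.71 in HT2, spread widest.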

How the data were processed

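Messenger RNA was sequenced as single-end reads of 50 nt, per the series design text, from pools of 40 body parts extracted with the MiRVana kit, per the labels' protocols. The authors' deposited values are raw counts, whole numbers for each FlyBase gene and not normalized. The sources used here do not give the aligner, the counter, the genome build or the annotation. The counts of genes lying inside others were compared with those of the outer gene to check whether strand and introns entered the counting. Symbols were found for 16735 of 16942 genes in the Ensembl annotation of BDGP6.54, which gave positions and exon lengths.

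CPM, counts scaled by the TMM effective library size, were computed from these counts, and ± SD is the technical spread of 2 split libraries. Pools were compared with edgeR 4.0.16 in R 4.3.3 (quasi-likelihood test, filterByExpr, all 6 libraries in 1 fit, 3 residual degrees of freedom, technical coefficient of variation 1.63%). Benjamini-Hochberg adjustment ran over all genes tested. Total counts of 21070598 to 34217543 limit precision through counting error for genes with few counts. A floor of 3 counts was used where a pool had 0. DESeq2 1.42.0, other scalings and filters, and leaving out each library were alternatives. The steps were tested on simulated data. Split libraries were compared by exact binomial tests.

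The members and gene lists were chosen with earlier results of these data known. All 10 enzymes and 11 paralogues are named, and up to 4 genes of highest mean CPM of each other list. Sequences were not used here.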

Additional observations from a re-analysis of the deposited data

How the results depend on the processing

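None of the 10 enzymes changed direction in either comparison under 13 alternatives each, and calls at 2-fold stayed on the same side except for Pfk in abdomen, given above. In abdomen the median over all genes shifted by 0.14 (log2) with DESeq2 size factors and by 0.21 with raw library totals; under raw totals the 8 enzymes other than Pglym87 and Ldh stood between -2.83 and -0.81. At 26 h, 6 to 9 enzymes were lower with no fold limit. Over all genes at 26 h, 131 were called lower by the DESeq2 Wald test, against 220 by the edgeR quasi-likelihood test, and with the fold limit inside the model 88 were lower and 317 higher, against 912. Paralogues called higher at 26 h numbered 0 with that fold limit and 3 to 5 when split libraries were left out, 5 of them without split library 1 of HT26. CG12229 at 26 h, with a log2 ratio of 0.01, turned to -0.0876 with raw totals and, when split libraries were left out, ran from -0.0236 (without split library 1 of HT2) to 0.0335; the cause was not tested. Between split libraries, raw totals gave 3 enzymes in abdomen, 1 in HT26 and 1 in HT2, and a count limit of 1 gave 0 in abdomen. Counts per exonic length gave Pglym87 74.1% of its pair in abdomen, and Gapdh1 35.6% in abdomen, 59.1% in HT26 and 66.3% in HT2. Leaving out a split library, the share of Gapdh1 ran from 35.7% to 36.9% in abdomen and from 66.5% to 67.1% in HT2.

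Deviations of split libraries of equal number had a correlation of 0.24 between HT2 and HT26, over 5670 genes. The correlation was -0.05 between HT2 and abdomen and 0.06 between abdomen and HT26. With the number as a replicate block, 8 enzymes were called lower and 1 higher in abdomen, and 1 higher and 0 lower at 26 h, as without it. Depth limits Pglym87 and the paralogues in head-thorax, where several have under 20 counts per pool.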

Other observations

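The paralogues were also set against the testis markers of the same pool, as counts per 100 testis marker counts with exact counting intervals. In HT2 the testis markers differed between split libraries, with sums of 14.7 and 9.26 CPM and with 54 and 12 counts of betaTub85D. The intervals do not cover this spread, so their overlap does not sort the paralogues into groups. Ald2 had 1.75 in abdomen (1.70 to 1.79), 2.19 in HT26 (1.57 to 2.99) and 1.49 in HT2 (0.709 to 2.75). Hex-t2 had 1.69 in abdomen (1.65 to 1.73), 2.19 in HT26 (1.57 to 2.99) and 1.93 in HT2 (1.02 to 3.33). For CG7362, Gpo3 and Hex-t1, too, the intervals of all 3 pools overlapped, though Hex-t1 had 0 counts in HT26 and 1 in HT2. For CG9961, CG2964, CG12229, CG11249, CG13334, Gpo2 and CG7024, the HT26 interval lay above that of abdomen. CG7069, another pyruvate kinase copy, had 2.16 in abdomen (2.11 to 2.21), 9.74 in HT26 (8.32 to 11.3) and 18.9 in HT2 (15.5 to 22.8). It begins 88 bases after PyK, and its 127 counts in HT2 stood beside 53337 of PyK. Any part of PyK reads in the counts of CG7069 was not tested. CG7059, the phosphoglycerate mutase copy, had 1.05 in abdomen (1.02 to 1.08), 11.0 in HT26 (9.50 to 12.7) and 39.7 in HT2 (34.3 to 45.8). Gpdh3, of the glycerol phosphate shuttle, had 7.71 in abdomen, 37.5 in HT26 and 69.7 in HT2. CG7059 and Gpdh3 lie 3231 bases apart on the same strand of 3R, and CG7069 ends 6455 bases before Gpdh3, so PyK, CG7069, Gpdh3 and CG7059 are close neighbours in that order. General copies stood far above these values in head-thorax, with 0.785 Pglym78 counts per 100 testis marker counts in abdomen, against 1502 in HT2.

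Markers of other tissues in the pools moved less evenly. Of the 7 midgut markers, Mal-A1 and Jon65Aiii were called higher in abdomen. Jon65Aiii lies at the limit (2.02-fold), and 1 midgut marker was called with no filter on low counts, with the fold limit inside the model, and without split library 2 of abdomen or of HT2. The summed level of the 7 markers was 6821 and 7188 CPM in abdomen, 5891 and 6070 in HT26 and 6392 and 6230 in HT2. Of the 6 fat body markers, Lsp2, a storage protein, and Adh, alcohol dehydrogenase, were called lower in abdomen; the counts of Adh are identical to those of Adhr, which overlaps it on the same strand, so they cannot be assigned to either gene. Lsp2 had 3.28 ± 0.316 CPM in abdomen, 374 ± 6.0 CPM in HT26 and 971 ± 4.10 CPM in HT2 (SD of 2 split libraries), and it was the only fat body marker called at 26 h, with a log2 ratio of -1.37. Of the 5 markers of other muscles, TpnC47D and TpnC73F were called higher and Act79B lower in abdomen, and 0 were called at 26 h in the edgeR quasi-likelihood test, with 1 higher and 2 lower when no fold limit was set.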
